A study of Mus musculus with 50 samples.

Results

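Keratins are the intermediate filament proteins of epithelial cells, and each filament is built from pairs of 1 type I and 1 type II keratin. The 10 keratin genes described here, of 21954 genes in the deposited tables, fall into 3 classes: 4 stress keratins (Krt6a, Krt6b, Krt16 and Krt17), 3 basal keratins (Krt5, Krt14 and Krt15) and 3 suprabasal keratins (Krt1, Krt2 and Krt10). They are listed by gene name and class, and no threshold on their values was used. Basal keratinocytes hold the filament pair of Krt5 and Krt14, and cells that leave the basal layer switch to Krt1 and Krt10. At a wound edge, keratinocytes are known to switch on the stress keratins, with Krt6a and Krt6b as the type II partners and Krt16 and Krt17 as the type I partners.

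The data were bulk RNA-seq profiles of tissue around the wound bed of 41 digits from C57Bl/6 male mice in which digit 3 of both hindlimbs was amputated through the distal terminal phalanx, the last bone of the digit. The sources name no genotype change and no treatment apart from the amputation, and the mice were 9 to 10 weeks old per the study's methods. The non-regenerative group held 29 digits, with 3 digits each at 0, 3, 6, 12 and 24 hours and at 3, 14 and 21 days, and 5 digits at 7 days. The intermediate group, called "Medium" in the labels, held 12 digits, with 3 each at 0 and 24 hours and at 14 and 21 days. The labelled amputation level was 60% to 80% of the phalanx in non-regenerative digits, of which 11 lay under 67%, and 41% to 55% in intermediate digits. Digits removed at 0 hours served as the controls of their own group, and 1 animal could give a left and a right digit. The p-values therefore measure the spread between these digits, which need not come from separate animals.

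The total of expected counts was 1468749 to 13011782 per digit. The shallowest digit was replicate 3 at 3 hours. One digit, non-regenerative replicate 2 at 14 days, stood apart from the rest: its normalized TPM (the TPM of the authors, a length-adjusted transcript abundance, after their scaling between samples) summed to 3362791, the highest of 41 digits, against 795701 in the lowest. Calls at 14 days that involve it are given with and without it. The labels of 5 pairs of digits carry the same mark, date and side, which is left in each pair. By the study's methods 1 animal gives 1 left digit, so the mark may have been used again or a label may be wrong. Whether any pair shares an animal is not known. Within a comparison made here, these pairs are non-regenerative replicate 1 at 0 hours with replicate 3 at 12 hours, and non-regenerative replicate 3 with intermediate replicate 1 at 14 days. The others pair intermediate replicates 2 and 3 at 0 hours with non-regenerative replicates 1 and 2 at 12 hours, and non-regenerative replicate 3 at 3 days with replicate 1 at 7 days. A fall in the RNA of a gene in such tissue cannot be told apart from a loss of the cells that express it.

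The type I genes (Krt16, Krt17, Krt14, Krt15 and Krt10) lie on chromosome 11 and the type II genes (Krt6a, Krt6b, Krt5, Krt1 and Krt2) on chromosome 15 of GRCm38, all on the minus strand. Krt6b (chr15:101676023-101680287), Krt6a (chr15:101689910-101694307) and Krt5 (chr15:101707070-101712898) lie close together, as do Krt14 (chr11:100203162-100207548), Krt16 (chr11:100246091-100248902) and Krt17 (chr11:100256217-100261029). Several of these genes have nearly the same sequence, and the authors' 65-base reads could match more than 1 of them. The coding sequences of Krt6a and Krt6b were 97.6% identical, and those of Krt16 and Krt14 were 82.9% identical. The windows below show where a read can and cannot tell the genes apart. They are read on the minus strand, and capitals mark bases that differ within a pair. The first pair is identical between Krt6a (exon 1, chr15:101694151-101694215) and Krt6b (exon 1, chr15:101680126-101680190).
Krt6a: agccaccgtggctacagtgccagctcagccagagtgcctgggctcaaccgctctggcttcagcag
Krt6b: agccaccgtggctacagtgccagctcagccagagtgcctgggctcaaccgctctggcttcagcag
The second pair, which had the most differences of any aligned coding window within 1 exon, differs at 11 bases between Krt6a (exon 4, chr15:101692490-101692554) and Krt6b (exon 4, chr15:101678309-101678373).
Krt6a: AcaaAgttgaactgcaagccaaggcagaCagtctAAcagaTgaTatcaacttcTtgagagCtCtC
Krt6b: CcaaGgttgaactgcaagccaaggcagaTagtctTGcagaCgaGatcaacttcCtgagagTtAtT
The third pair is identical between Krt16 (exon 1, chr11:100248769-100248833) and Krt14 (exon 1, chr11:100207334-100207398).
Krt16: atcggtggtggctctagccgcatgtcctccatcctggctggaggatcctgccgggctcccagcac
Krt14: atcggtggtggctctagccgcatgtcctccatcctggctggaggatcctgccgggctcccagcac

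Over the whole transcript, 60.3% of the 65-base windows of Krt6a and 67.0% of those of Krt6b matched a transcript of another gene within 2 mismatches. The share was 60.8% for Krt16, 39.8% for Krt14, 14.5% for Krt17 and 12% for Krt5. It was 0.795% for Krt15, 0.118% for Krt2, and 0 for Krt1 and Krt10. The gene with which Krt16 shared the most windows was Gm11597 (37.9%), which is not among the keratins described here. The levels of Krt6a against Krt6b, and of Krt14 and Krt17 against Krt16, are therefore uncertain, since the reads they share were divided by an estimate. The levels of Krt15, Krt1, Krt2 and Krt10 are nearly free of this limit.

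At 0 hours the non-regenerative digits expressed mainly suprabasal keratins. The order of mean normalized TPM was Krt10 at 18442, Krt1 at 17867 and Krt2 at 16505, then Krt14 at 5338 and Krt5 at 2385. Krt6a followed at 631, Krt16 at 520, Krt15 at 253, Krt6b at 225 and Krt17 at 178. The digits overlapped between neighbours within the 3 suprabasal genes and again from Krt6a down to Krt17, whereas Krt14 and Krt5 stood clear of their neighbours on both sides. Intermediate digits at 0 hours had the same 5 leading genes, and no member was called different between the groups (edgeR, 0 of 10 called, 0 at an unadjusted p under 0.05, 0 with DESeq2), where 0.0% of all 13500 genes tested were called.

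Of the type II stress keratins, Krt6a measured 666, 687 and 541 normalized TPM in the 3 non-regenerative digits at 0 hours. At 6 hours it measured 3676, 3557 and 2686, at 12 hours 11276, 5482 and 6835, and at 24 hours 13376, 12143 and 11849. Every digit from 6 to 24 hours lay above every digit at 0 hours, and the mean at 24 hours was 19.7-fold that at 0 hours. Krt6b, its near-identical neighbour, measured 123, 317 and 234 at 0 hours and 10413, 11099 and 8793 at 24 hours, a 45-fold rise of the mean. Its digits at 6 hours, at 1234, 1779 and 2088, were already above all those at 0 hours.

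Of the type I stress keratins, Krt16 measured 404, 623 and 532 normalized TPM at 0 hours and 17130, 19703 and 12547 at 24 hours, 31.7-fold higher in the mean. Its digits at 6 hours lay close together at 4840, 4627 and 4306. Krt17, a type I keratin that hair follicle and nail cells also hold, measured 249, 112 and 172 at 0 hours and 3446, 2544 and 3104 at 24 hours, 17.0-fold higher. At 3 hours Krt17 measured 88.5, 183 and 80.9, overlapping the digits at 0 hours. Krt16 at 3 hours measured 511, 1514 and 953, and the 3-hour digits of each stress keratin overlapped those at 0 hours.

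**Figure D1:**
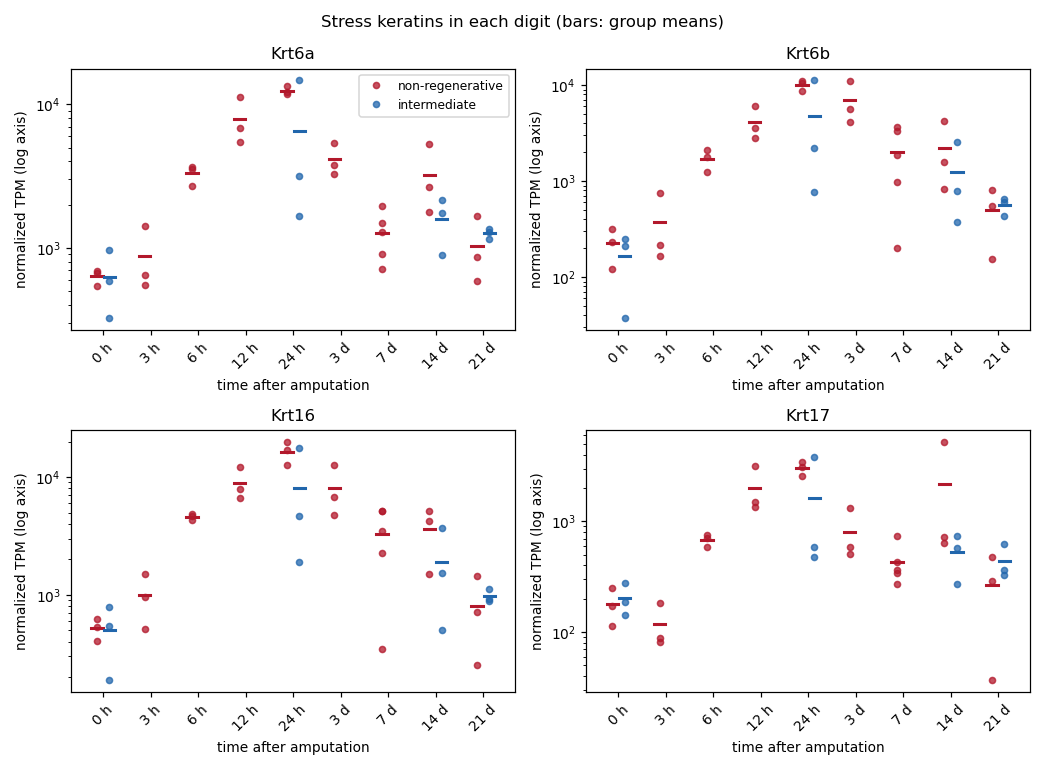
Normalized TPM (log axis) of the 4 stress keratins in each digit against time after amputation, with non-regenerative digits in red, intermediate digits in blue and short bars at the group means. The 3 non-regenerative digits at 24 hours lie together, between 11849 and 13376 for Krt6a, while the intermediate digits at 24 hours spread from 1666 to 14698.

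The tests put these changes on the log2 scale, with the standard error (SE) of the edgeR quasi-likelihood fit and a p adjusted over all genes tested by the Benjamini-Hochberg method. A gene was called changed at an adjusted p under 0.05 with more than a 2-fold change. At 3 hours no member was called (0 of 10 with edgeR, 1 at an unadjusted p under 0.05, 0 with DESeq2), and 0.0% of all genes were called. At 6 hours all 4 stress keratins rose, against 3.23% of all genes tested. The log2 changes were 2.44 (SE 0.25, adjusted p 0.00318) for Krt6a, 2.97 (SE 0.41, adjusted p 0.00895) for Krt6b, 3.19 (SE 0.27, adjusted p 0.00162) for Krt16 and 2.0 (SE 0.29, adjusted p 0.0111) for Krt17. Without replicate 3 at 0 hours, the adjusted p was 0.0627 for Krt6b and 0.0702 for Krt17. With all 41 digits in 1 fit and a term for the date period, it was 0.0691 for Krt6b and 0.235 for Krt17.

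The stress keratins were also higher than at 0 hours at both later times of the first day. At 12 hours all 4 stress keratins were higher than at 0 hours, by 3.70 for Krt6a, 4.27 for Krt6b, 4.15 for Krt16 and 3.56 for Krt17 on the log2 scale, against 6.76% of all genes called higher. At 24 hours the log2 changes were 4.36 (SE 0.27, adjusted p 0.000109) for Krt6a, 5.53 (SE 0.43, adjusted p 0.00028) for Krt6b, 5.03 (SE 0.34, adjusted p 0.000136) for Krt16 and 4.16 (SE 0.33, adjusted p 0.000303) for Krt17. In that comparison 5.57% of all genes were called higher. The median log2 change of the stress keratins was 4.69, that of the basal keratins 0.11 and that of the suprabasal keratins -1.0, beside -0.04 over all genes tested. The dates in the labels form 2 periods months apart, and the log2 change of the mean depth-scaled count of Krt6a at 24 hours was 4.34 within the earlier one (2 digits against 1) and 4.31 within the later one (1 against 2). The values within the earlier and the later period were 6.39 and 5.33 for Krt6b, 5.30 and 5.10 for Krt16, and 3.82 and 4.16 for Krt17. The calls of the 4 stress keratins at 12 and 24 hours held in every fit that left out 1 digit.

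Step by step, only part of the rise was called. Between 3 and 6 hours Krt17 rose by 2.50 (SE 0.33, adjusted p 0.041), the 1 member called, where 0.0895% of genes were called higher. This call did not hold without replicate 1 at 3 hours (adjusted p 0.22) or without any 1 of the 6-hour digits (adjusted p 0.0902, 0.159 and 0.204), and with all digits and a date term in 1 fit the adjusted p was 0.156. Krt16 changed by 2.17 (adjusted p 0.077) over the same step. Between 6 and 12 hours 0 of 10 members were called with edgeR, 9 had an unadjusted p under 0.05 and DESeq2 called 5, beside 0.0641% of all genes.

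The basal keratins did not move together. Krt5, the basal type II keratin, measured 2210, 2575 and 2370 normalized TPM at 0 hours and 2264, 2858 and 2330 at 24 hours, with the groups overlapping. Its log2 change at 24 hours was 0.11, with a 95% interval of -0.38 to 0.60 (adjusted p 0.76). Krt14, its type I partner, measured 4960, 5624 and 5431 at 0 hours and 17836, 17423 and 14524 at 24 hours, so that every digit at 24 hours was higher. Krt14 rose by 1.69 (SE 0.25, adjusted p 0.00415) at 24 hours, and 39.8% of its windows are shared with other genes, Krt16 among them. With all 41 digits in 1 fit, its adjusted p was 0.086, and 0.0541 with a term for the date period. At 12 hours the change of Krt14 was 0.84 (adjusted p 0.0429), which was under the 2-fold limit.

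Krt15, a type I keratin of basal cells and hair follicle stem cells, went the other way. It measured 138, 217 and 405 normalized TPM at 0 hours, 37.0, 26.7 and 122 at 12 hours, and 11.2, 11.6 and 11.3 at 24 hours. The 3 digits at 24 hours were the lowest of all 41 digits, with an SD of 0.20. The mean fell 22.3-fold, and the log2 change was -4.19 (SE 0.34, adjusted p 0.00031), in a comparison where 5.14% of genes were called lower. At 12 hours the change was -2.04 (SE 0.49, adjusted p 0.0248), where 4.64% of genes were called lower. The 12-hour call was lost without replicate 2 or 3 at 0 hours (adjusted p 0.0535 and 0.0783) and without replicate 1 or 2 at 12 hours (adjusted p 0.0909 and 0.0572), while the 24-hour call held in all 6 such fits. All 3 digits at 12 hours carry earlier dates, as does 1 of the 3 at 0 hours, and within the earlier period the change at 12 hours was -1.42. With all digits in 1 fit the 12-hour change was -2.06 (adjusted p 0.0819), and with a date term it was -1.59 (adjusted p 0.238). At 24 hours it was -3.60 within the earlier and -4.37 within the later period.

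Of the suprabasal keratins, Krt1 alone was called against 0 hours, and at 12 hours only. Krt1, a type II keratin of differentiating cells, measured 8003, 24354 and 21244 normalized TPM at 0 hours, 5611, 5908 and 4892 at 12 hours, and 5744, 17059 and 3433 at 24 hours. It was called lower at 12 hours (log2 change -1.66, SE 0.42, adjusted p 0.0296), but not at 24 hours (-1.0, adjusted p 0.306). The 12-hour call held only without replicate 1 at 0 hours among the 6 fits that left out a digit, with adjusted p of 0.0792 to 0.13 in the other 5. With all digits in 1 fit the change was -1.69 (adjusted p 0.122), with a date term it was -0.83 (adjusted p 0.422), and within the earlier period, which holds all 12-hour digits and 1 digit at 0 hours, it was -0.46.

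Krt10, the type I partner of Krt1, measured 11467, 22757 and 21100 at 0 hours and 9803, 12025 and 7126 at 24 hours. The groups overlapped, and the change was -0.89 with a 95% interval of -1.71 to -0.07 (adjusted p 0.124). Krt2, a type II keratin of the upper spinous layers, measured 10247, 20526 and 18742 at 0 hours and 9173, 7007 and 6142 at 24 hours, with a change of -1.10 (95% interval -1.91 to -0.29, adjusted p 0.0667). Every 24-hour digit of Krt2 lay below every digit at 0 hours. At 3 days Krt2 measured 6644, 6420 and 3782, with a change of -1.55 (adjusted p 0.177).

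**Figure D2:**
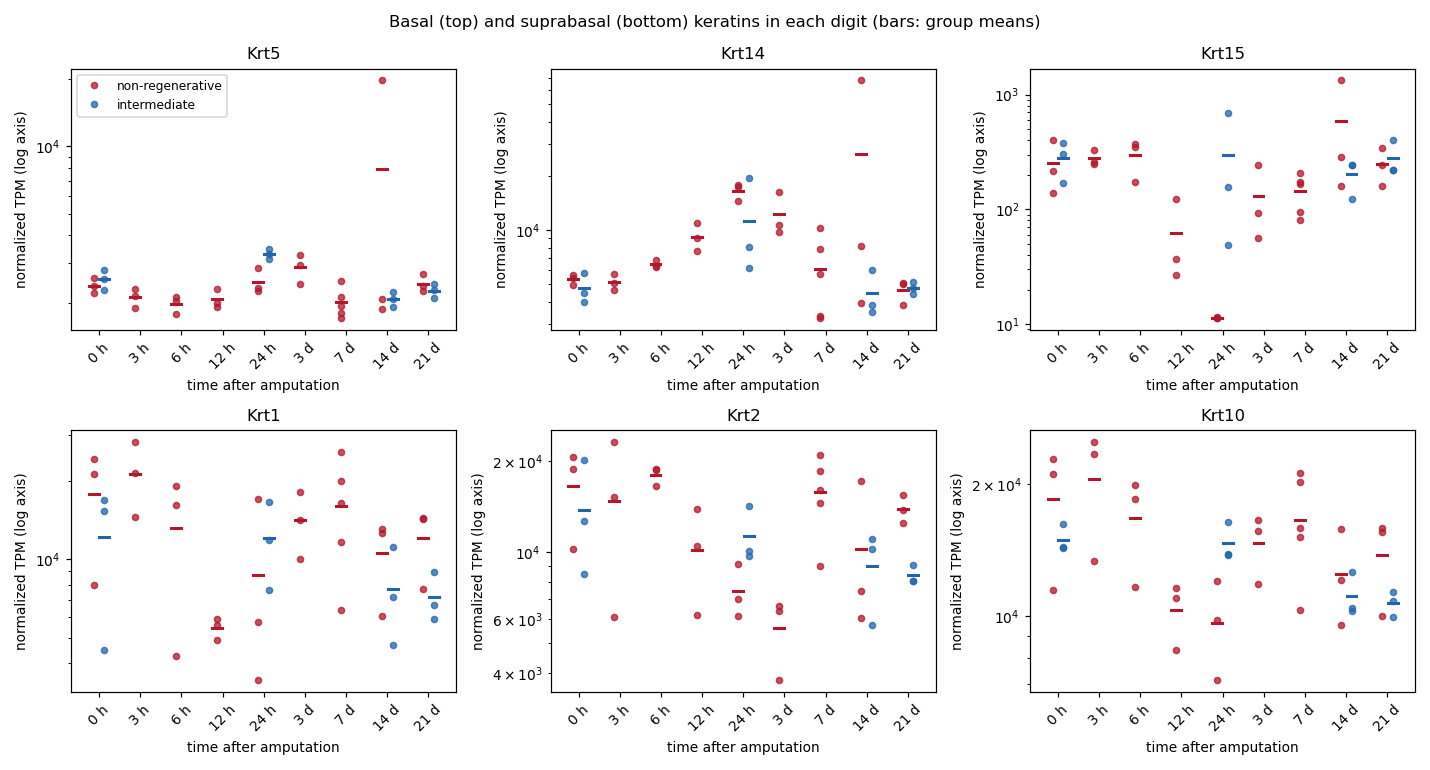
Normalized TPM (log axis) of the basal keratins (top) and suprabasal keratins (bottom) in each digit against time after amputation, coloured and marked as in the plot of stress keratins. Krt15 falls to between 11.2 and 11.6 in the 3 non-regenerative digits at 24 hours while Krt5 stays between 2264 and 2858, and the high basal values at 14 days come from replicate 2.

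At 3 days the stress keratins were between their levels at 0 and 24 hours in part of the digits. Krt6a measured 3262, 5377 and 3796 normalized TPM, all below its 24-hour digits, and Krt6b measured 4171, 11055 and 5688, which overlapped them. Against 0 hours Krt6a (2.74, SE 0.31, adjusted p 0.00632), Krt6b (4.97, SE 0.57, adjusted p 0.00632) and Krt16 (3.97, SE 0.46, adjusted p 0.00647) were still higher, where 0.557% of genes were called higher. Krt17 had a change of 2.22 (SE 0.45, adjusted p 0.0768). Without replicate 3 at 0 hours the adjusted p of Krt6a was 0.0551.

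Set against 24 hours, Krt6a fell by 1.59 (SE 0.26, adjusted p 0.0187) and Krt17 fell by 1.91 (SE 0.37, adjusted p 0.0312) at 3 days, with 1.5% of genes called lower. Krt6b changed by -0.53 (adjusted p 0.475) and Krt16 by -1.03 (adjusted p 0.174). Krt15 rose by 3.24 (SE 0.45, adjusted p 0.0148), with 1.26% of genes called higher, to 56.6, 243 and 92.1 normalized TPM. These 3 calls turned on single digits. Without replicate 1 or replicate 3 at 24 hours 0 members were called, without replicate 1 or replicate 3 at 3 days 1 was called, and without replicate 2 at 3 days 5 were called, with all 4 stress keratins lower (Krt6a -1.84, Krt6b -1.05, Krt16 -1.52 and Krt17 -2.49). Replicate 2 had the highest Krt6a and Krt6b of the digits at 3 days, so the tested values themselves single it out. The fit without it therefore describes the remaining digits and does not test a fall of all 4 genes. With all digits and a date term in 1 fit, the adjusted p was 0.296 for Krt6a and 0.363 for Krt17. Differences between the 4 genes in these changes were not tested.

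From 7 days on, edgeR called no member against 0 hours with all digits in the fit. The median log2 change of the 4 stress keratins was nevertheless 2.03 at 7 days, 2.84 at 14 days and 0.67 at 21 days. At 14 days every digit of each stress keratin lay above every digit at 0 hours. The lowest at 14 days and highest at 0 hours were 1762.5 and 686.9 normalized TPM for Krt6a and 835.5 and 316.7 for Krt6b. They were 1489.7 and 622.9 for Krt16 and 642.4 and 249 for Krt17. It held at 7 days for Krt6a and Krt17 only. At 7 days the 5 digits spread widely, from 713 to 1947 (median 1290) for Krt6a and from 344 to 5162 (median 3496) for Krt16. With edgeR 0 of 10 members were called at 7 days, 4 had an unadjusted p under 0.05 and DESeq2 called 2, beside 0.0537% of all genes. At 21 days Krt6a measured 1658, 865 and 583 and Krt15 measured 341, 243 and 161, both overlapping the digits at 0 hours. With edgeR 0 of 10 were called at 21 days, 0 had an unadjusted p under 0.05 and DESeq2 called 0, beside 0.452% of all genes. The 95% interval for Krt6b at 21 days, -0.21 to 2.54, still includes changes of more than 4-fold. Fibroblast markers were higher in every digit at 14 and 21 days than at 0 hours. The summed level of the 6 fibroblast markers was 1612 to 2956 normalized TPM at 0 hours, 16117 to 34126 at 14 days and 7581 to 16843 at 21 days. At 21 days 3 of the 6 rose, led by Col1a1 (3.17, adjusted p 0.0232) and Col1a2 (2.96, adjusted p 0.0264), collagen genes. The part of these markers in the late keratin values was not tested.

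Against 24 hours, the stress keratins were lower at 21 days. On the log2 scale Krt6a fell by 3.64 (SE 0.39, adjusted p 0.00147), Krt6b fell by 4.37 (SE 0.57, adjusted p 0.00289), Krt16 fell by 4.40 (SE 0.60, adjusted p 0.00353) and Krt17 fell by 3.57 (SE 0.77, adjusted p 0.0186). Krt14 fell by 1.89 (SE 0.20, adjusted p 0.00147), and 5.37% of all genes were called lower. Krt15 rose by 4.20 (SE 0.30, adjusted p 0.000324), where 5.93% of genes were called higher. The call of Krt17 was lost without replicate 1 or 3 at 24 hours (adjusted p 0.0682 and 0.0505).

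At 14 days the value of each basal keratin depended on 1 digit. Krt5 measured 2082, 19686 and 1869 normalized TPM and Krt14 measured 3940, 67831 and 8156, replicate 2 being the middle value given. Krt15 measured 286, 1329 and 160 in the same order, and Krt17 measured 642, 5169 and 720. In that digit Trp63, a transcription factor that basal keratinocytes need, was at 39.4 normalized TPM, against 162 and 135 in replicates 1 and 3. The listed keratinocyte lineage factors, Trp63 among them, went the other way as a sum, at 1778 against 980 and 1057. Genes of hemidesmosomes, which anchor basal cells, summed to 1905 against 1066 and 709. Itga6, one of those genes, was at 30.8 against 175 and 178. The part of these genes in the keratin values was not tested. With all 3 digits edgeR called 0 of 10 members against 0 hours, 4 had an unadjusted p under 0.05, DESeq2 called 4, and 0.0% of all genes were called. Without replicate 2, Krt6a (1.76, SE 0.30, adjusted p 0.0382) and Krt17 (1.90, SE 0.33, adjusted p 0.0442) were called higher, beside 1.75% of all genes called higher, and the changes were -0.32 for Krt5 and 0.13 for Krt14.

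**Figure D3:**
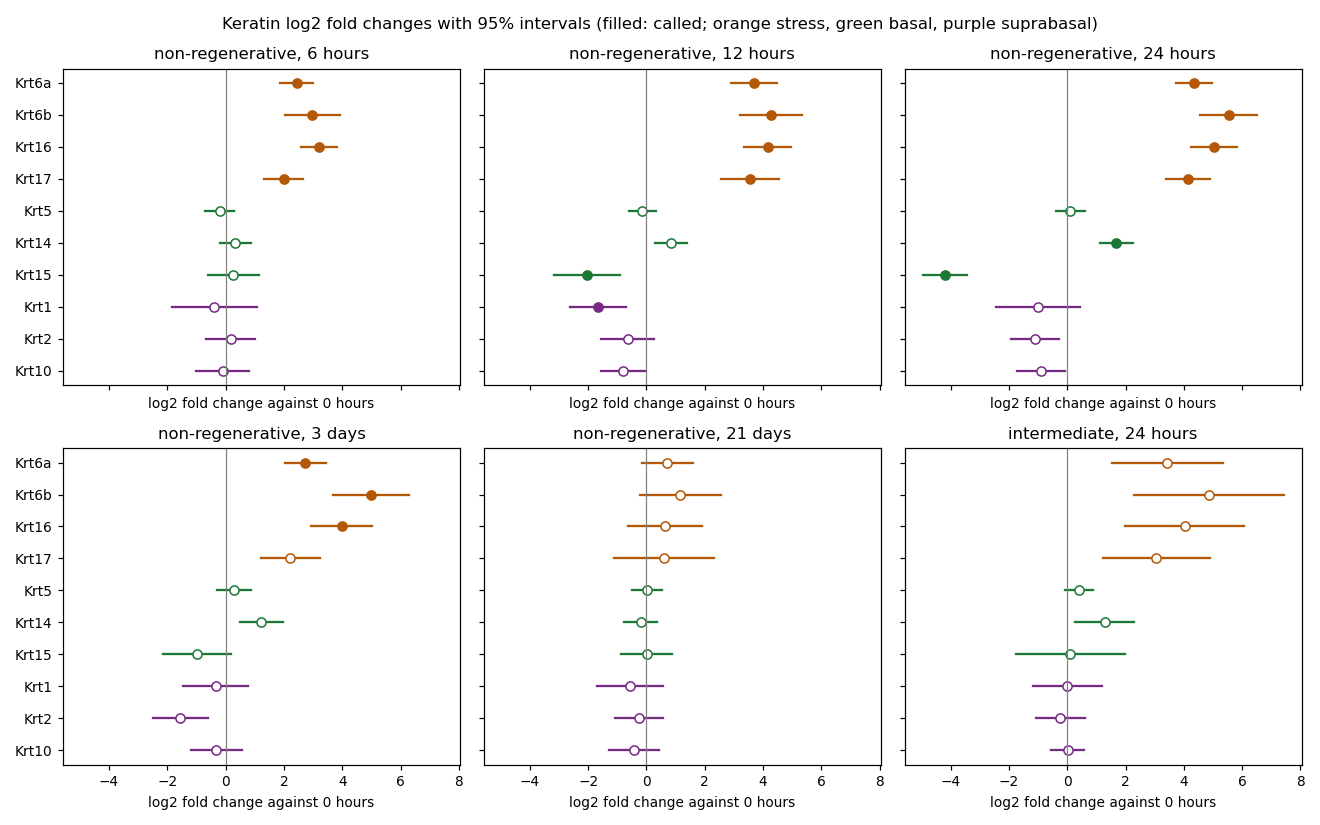
Log2 fold change against 0 hours (points) with 95% intervals (lines) for the 10 keratins in 6 comparisons, with filled points where a gene was called, orange for stress, green for basal and purple for suprabasal keratins. The filled stress keratins at 24 hours in non-regenerative digits lie between 4.16 and 5.53, Krt15 lies at -4.19, and no point is filled in the intermediate digits.

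Ratios within a digit compare the classes directly; they are given as descriptions, with no test. In non-regenerative digits the summed normalized TPM of the stress keratins was 0.195 ± 0.0134 (SD, n = 3) of that of the basal keratins at 0 hours and 2.20 ± 0.0452 (SD, n = 3) at 24 hours. The ratio was 1.18 ± 0.126 at 6 hours, 1.98 ± 0.424 at 12 hours, 1.26 ± 0.271 at 3 days and 0.355 ± 0.207 at 21 days (SD, n = 3 each). At 7 days it was 0.852 ± 0.416 (SD, n = 5). At 14 days it was 0.729 ± 0.535 (SD, n = 3), from digits between 0.184 and 1.25. Against the suprabasal keratins, the stress keratins went from 0.0328 ± 0.0136 at 0 hours to 1.74 ± 0.459 at 24 hours (SD, n = 3 each). At 24 hours the summed level of the stress keratins was above that of each other class in all 3 digits.

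As a share of all counts, the stress keratins took 0.178% ± 0.0159 at 0 hours and 4.57% ± 0.351 at 24 hours (SD, n = 3 each). The suprabasal keratins took 7.31% ± 2.44 and 3.41% ± 1.1 at those times. All 10 genes together took 8.35% ± 2.45 at 0 hours and 9.86% ± 1.37 at 24 hours, a difference smaller than the spread between digits. 

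The keratin pairs behaved differently. The ratio of Krt14 to Krt5 was 2.24 ± 0.0541 at 0 hours, 6.74 ± 0.992 at 24 hours and 1.91 ± 0.222 at 21 days (SD, n = 3 each). The ratio of Krt1 to Krt10 was 0.925 ± 0.199 at 0 hours and 0.829 ± 0.513 at 24 hours, within the spread. For the stress keratins the ratio of type II to type I was 1.22 ± 0.132 at 0 hours and 1.17 ± 0.138 at 24 hours. That difference was smaller than the spread between digits. The ratio of Krt6b to Krt6a was 0.359 ± 0.152 at 0 hours, 0.812 ± 0.0906 at 24 hours and 1.61 ± 0.401 at 3 days, and in all 3 digits at 3 days Krt6b was the higher of the pair. Reads that Krt6a and Krt6b share were divided by an estimate, so this ratio and its change over time are uncertain.

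**Figure D4:**
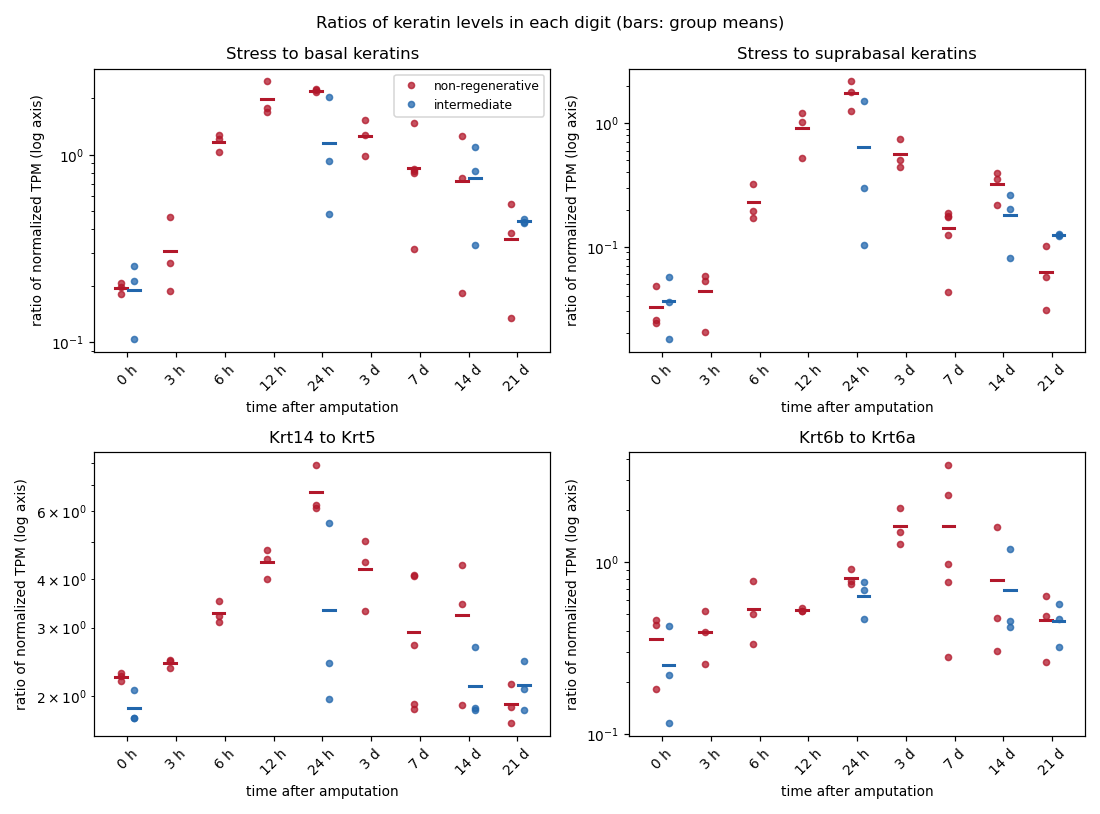
Ratios of normalized TPM (log axis) in each digit against time after amputation, with non-regenerative digits in red, intermediate digits in blue and bars at group means. The stress to basal ratio of the non-regenerative digits goes from 0.195 at 0 hours to 2.20 at 24 hours, and the Krt6b to Krt6a ratio is highest later, with a mean of 1.61 at 3 days and, at 7 days, 1.63 from digits between 0.282 and 3.65. Krt6a and Krt6b share reads, so the ratio between them is uncertain.

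In the intermediate digits the response at 24 hours differed between digits. Krt6a measured 14698 normalized TPM in replicate 1, 1666 in replicate 2 and 3175 in replicate 3, against 586, 961 and 321 in the digits at 0 hours. Krt16 measured 17633, 1907 and 4641 in that order, and Krt15 measured 49.1, 685 and 156. Replicate 1 lay within or above the range of the non-regenerative digits for the 4 stress keratins, and replicates 2 and 3 lay between them and the 0-hour digits. Replicate 1 was labelled with an amputation level of 41% and the earlier dates, and the other two with 50% and 52% and the later dates, so that the date, the level and the digit cannot be told apart. The summed level of the 5 neutrophil markers was 1326 in replicate 1, 138 in replicate 2 and 404 in replicate 3. It was 1130 to 1256 in the non-regenerative digits at 24 hours. Most of it came from S100a8 (505, 13.2 and 93.2) and S100a9 (783, 118 and 296), which activated keratinocytes also make. The hard keratins of nail and hair summed to 894, 4696 and 4727 in the same order, against 482 to 522 in the non-regenerative digits. The part of these markers in the values of the 10 keratins was not tested.

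With edgeR 0 of 10 members were called between 0 and 24 hours in the intermediate digits, 5 had an unadjusted p under 0.05 and DESeq2 called 4 (Krt6a, Krt6b, Krt16 and Krt14), beside 0.0152% of all genes. The log2 changes were 3.43 (SE 0.83, adjusted p 0.139) for Krt6a, 4.86 (SE 1.1, adjusted p 0.131) for Krt6b, 4.02 (SE 0.88, adjusted p 0.129) for Krt16 and 3.06 (SE 0.80, adjusted p 0.163) for Krt17. Krt15 changed by 0.10, with a 95% interval of -1.76 to 1.97. At 14 days edgeR called 0 of 10 (5 at an unadjusted p under 0.05, 1 with DESeq2), beside 1.68% of all genes, and at 21 days 0 of 10 (6 at an unadjusted p under 0.05, 1 with DESeq2), beside 1.39%. In these digits the summed fibroblast markers went from 1535 to 4529 normalized TPM at 0 hours to 10250 to 25293 at 14 days and 9686 to 20822 at 21 days. The 4 osteoblast markers summed to 45.3 to 123 at 0 hours, 608 to 1618 at 14 days and 345 to 701 at 21 days, and all 4 rose at both times. Their part in the keratin values was not tested. Between 24 hours and 21 days Krt16 fell by 3.13 (SE 0.71, adjusted p 0.0338), the 1 member called, where 2.44% of genes were called lower. That call was lost without any 1 of the 21-day digits (adjusted p 0.132, 0.118 and 0.151) or without replicate 3 at 24 hours (adjusted p 0.0576), and with all digits and a date term in 1 fit (adjusted p 0.0753).

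Set directly against the non-regenerative digits at 24 hours, the intermediate digits had no member called (edgeR, 0 of 10; 1 at an unadjusted p under 0.05; 1 with DESeq2), and 0.0% of all genes were called. Krt6a differed by -0.94, with a 95% interval of -2.50 to 0.62, and Krt15 by 4.56 (SE 0.92, adjusted p 0.272). All 3 intermediate digits had more Krt15 than any non-regenerative digit at 24 hours. When intermediate replicate 1 was left out, 6 members were called. That digit had the highest stress keratins and the lowest Krt15 of its group, so the tested values themselves single it out. The adjusted p-values below therefore describe the remaining digits and do not test a difference between the groups. The intermediate digits that remain carry later dates, as does 1 of the 3 non-regenerative digits. Krt6a (-2.40, adjusted p 0.00485), Krt6b (-2.81, adjusted p 0.0092), Krt16 (-2.37, adjusted p 0.013), Krt17 (-2.55, adjusted p 0.00104) and Krt14 (-1.26, adjusted p 0.0191) were lower in the other two intermediate digits, beside 2.48% of genes called lower. Krt15 was higher by 5.06 (adjusted p 0.00185), beside 2.3% of genes called higher. With any other digit left out, 0 members were called.

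The change from 0 to 24 hours was not called different between the groups for any member (interaction in edgeR, 0 of 10 called, 1 at an unadjusted p under 0.05, 0 with DESeq2), where 0.0% of all genes were called. The intervals are wide and do not show that the changes were equal. The difference was -0.93 for Krt6a, with a 95% interval of -2.83 to 0.97, and 4.29 for Krt15 (SE 1.04, adjusted p 0.498). Without intermediate replicate 1 at 24 hours, the digit that these same values single out, Krt15 (4.82, adjusted p 0.013) and Krt17 (-2.74, adjusted p 0.0208) were called, beside 1.23% of all genes. For the changes to 14 and 21 days 0 of 10 were called (0 at an unadjusted p under 0.05 and 0 with DESeq2 in each), with 0.0% of all genes called. At 14 days the groups had 0 of 10 called (0 at an unadjusted p under 0.05, 0 with DESeq2), with 0.0% of all genes called. Without non-regenerative replicate 2 at 14 days, edgeR again called 0 of 10 both between the groups and for the change to 14 days (0 at an unadjusted p under 0.05 and 0.0% of all genes in each), and Krt14 differed between the groups by -0.41 instead of -2.13. At 21 days 0 of 10 were called (2 at an unadjusted p under 0.05, 0 with DESeq2) beside 0.648% of all genes, and Krt2 was lower in intermediate digits by less than 2-fold (change -0.79, adjusted p 0.0412). All 3 intermediate digits at 21 days carry earlier dates and all 3 non-regenerative ones later dates. Group and date period cannot be told apart in that comparison.

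**Figure D5:**
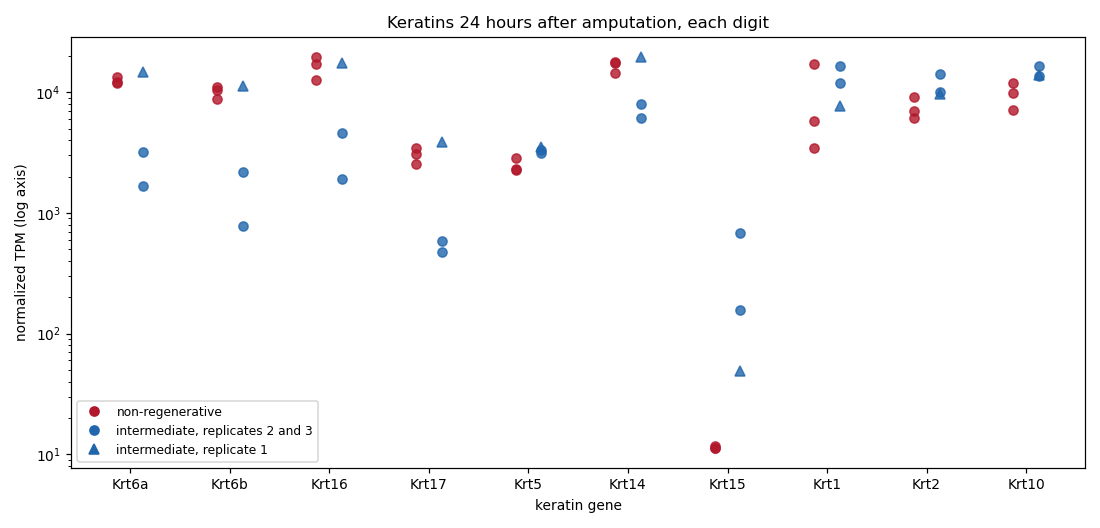
Normalized TPM (log axis) of the 10 keratins in each digit 24 hours after amputation, with non-regenerative digits in red, intermediate replicates 2 and 3 as blue circles and intermediate replicate 1 as blue triangles. The triangles lie beside the red points for the stress keratins and Krt14, whereas all 3 blue points lie above the red ones for Krt15.

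Other genes of keratinocytes at 24 hours in non-regenerative digits were read from lists of the pathway. These lists and the marker lists were chosen with earlier results of these data known, so counts of their members are descriptions. In that comparison 5.57% of all genes were called higher and 5.14% lower. Of 10 activated keratinocyte genes tested, 7 rose and 1 fell. Il24, a cytokine of wounded epidermis, was listed at 0 counts in the 3 digits at 0 hours and at 28.0, 34.6 and 62.7 normalized TPM at 24 hours. Defb14, an antimicrobial peptide, rose by 4.01 (SE 0.64, adjusted p 0.00542), and Ereg, an EGF receptor ligand, fell by 1.1 (SE 0.26, adjusted p 0.0228).

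Cell adhesion genes that anchor keratin filaments changed in part at 24 hours, where 5.57% of all genes were called higher. Of 13 desmosome genes, which join keratinocytes to each other, 3 rose, led by Dsc2 (3.36, SE 0.23, adjusted p 0.000145) and Dsg3 (3.05, SE 0.30, adjusted p 0.000694). Of 6 hemidesmosome genes, which anchor basal cells, 2 rose, Itga6 (1.56, SE 0.24, adjusted p 0.00483) and Itgb4 (1.24, SE 0.18, adjusted p 0.00415). Of 8 lineage factors 0 were called (4 at an unadjusted p under 0.05, 0 with DESeq2), and of 9 late differentiation genes 0 were called (6 at an unadjusted p under 0.05, 0 with DESeq2). Of 12 other epithelial keratins tested, 1 was called, Krt23, which fell by 1.34 (SE 0.27, adjusted p 0.0134), a share near the 5.14% of all genes called lower.

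Markers of other cells moved over the same hours, and their counts are read against the same 5.57% of genes called higher and 5.14% called lower. Of 4 neutrophil markers tested of 5 listed, 3 rose at 24 hours. S100a9 rose by 5.88 (SE 0.21, adjusted p 1.3e-05), and S100a8 was at 1.42, 0.359 and 0 normalized TPM at 0 hours and 390, 401 and 380 at 24 hours. Both are also made by activated keratinocytes. Mpo was listed at 0 in all 3 digits at 24 hours. Of 6 fibroblast markers 3 fell, with Col1a2 at -1.48 and Col1a1 at -1.40, and the summed level of the 6 was 1612 to 2956 normalized TPM at 0 hours and 604 to 1541 at 24 hours. Of 8 hard keratins of nail and hair 1 fell, Krt35 (-3.02, SE 0.28, adjusted p 0.00054), and their sum was 179 to 5246 at 0 hours and 482 to 522 at 24 hours. Scd1, a sebaceous gland gene (-1.93), and Tnnt3, a muscle gene (-4.10), fell, each being the 1 called gene of its list (of 2 and 1 tested). Of 4 endothelial markers 1 rose, Cdh5, by 1.0, while the sum of the 4 was 40.5 to 88.2 normalized TPM at 0 hours and 47.7 to 68.9 at 24 hours. Of 5 macrophage and 4 osteoblast markers 0 were called with edgeR, 0 had an unadjusted p under 0.05 and DESeq2 called 0. The part of these markers in the keratin changes was not tested.

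Across all 41 digits the 4 stress keratins ranked the digits alike, with Spearman's rho of 0.837 to 0.957 between pairs. Their rho with Krt14 was 0.699 to 0.807, with Krt5 0.12 to 0.178 and with Krt15 -0.566 to -0.371. These are descriptions over digits that share groups and libraries, and Krt14 and Krt16 also share reads. Of 10404 other genes, the 5 whose pattern was most like the mean of the stress keratins were Slpi (rho 0.883), a protease inhibitor of mucosa and skin, then Serp1 (0.879), Serinc2 (0.859), Tmem45b (0.853) and Lce3c (0.844), a cornified envelope gene. For the basal mean the highest rho was 0.711, for Cdc42bpg, followed by Kif1c, Gpt, Bspry and Gltscr2. The basal keratins did not rank the digits alike, so their mean stands for no pattern that all 3 share. Between pairs, rho was 0.437 for Krt5 with Krt14, 0.058 for Krt5 with Krt15 and -0.463 for Krt14 with Krt15. For the suprabasal mean the highest was 0.893, for Pmvk, followed by Fam25c, Prdx5, Tuft1 and Calml3.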

How the data were processed

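Per the labels and the study's methods, the authors prepared poly(A)-selected libraries by ligation-mediated sequencing and read single ends of 65 bases. Bowtie, with up to 2 mismatches and up to 200 hits per read, and RSEM 1.2.3 with mouse Ensembl annotation on mm10 (GRCm38) gave 1 expected count per gene. The authors deposited these expected counts without normalization, and a second table of TPM values scaled by a median-based factor, here called normalized TPM, which is a signal whose sum differs between samples. RSEM divides reads that match several genes by an estimate, which affects Krt6a, Krt6b, Krt14 and Krt16 most, and Krt17 and Krt5 less. Of the gene names, 26 had been turned into dates in the tables and were restored from the transcript field.

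Expected counts were rounded. Each comparison was fitted on the groups compared only (interactions: 4 groups) with edgeR 4.0.16 in R 4.3.3 (filterByExpr, TMM, glmQLFit, glmQLFTest), and p-values were adjusted over all genes tested by the Benjamini-Hochberg method. A gene was called at an adjusted p under 0.05 and more than 2-fold change of mean normalized count plus 1; interactions used the adjusted p only. The SE is the log2 change divided by the square root of the F statistic. Levels are normalized TPM per digit, in accession order within a group. Alternatives were DESeq2 1.42.0, median-of-ratios size factors, no filter on low counts, no fold limit, Krt6a and Krt6b summed, all 41 digits in 1 fit with and without a date term, and each digit left out in turn. On simulated counts for 12 against 0 hours over 13075 genes, with 200 genes changed 4-fold, 147 were recovered and 8 others were called.

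Windows of 65 bases were compared with all GENCODE M21 transcripts (GRCm38), forward strand, with at most 2 mismatches. Coding sequences were aligned with Biopython 1.88. All 10 keratins were read in each comparison, and not all of them are named in each. From the other lists at most the 2 largest called rises and 2 largest called falls are named. The 5 genes most alike by Spearman's rho are named among those with a mean of at least 5 normalized TPM, passing over placeholder names. The keratins and the lists were chosen with earlier results of these data known. The totals of the digits were 1468749 to 13011782 counts, and the intervals rest on the spread between digits. Macrophage libraries (15683424 to 27904773 counts) entered no test.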

Additional observations from a re-analysis of the deposited data

Results flagged for a closer look

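Cultured bone marrow macrophages, which entered none of the comparisons, were read for the 10 keratins, and 2 of them gave counts above the 3 counts that a count of 0 allows in every library of a group. Krt16 had expected counts of 11, 21 and 23 in the 3 libraries of M1 macrophages (treated to the pro-inflammatory state), and 0 to 2 in the M0 and M2 libraries. Krt10 had 13 to 21 counts in M0 and 7 to 12 in M2 macrophages, and 3 to 8 in M1. The other 8 keratins had at most 1 count in any of the 9 libraries, whose totals were 15683424 to 27904773. The counts cover counting error only.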

How the results depend on the processing

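No paired analysis was possible because the labels give the digits no replicate numbers, and the marks and dates in them tie at most 1 digit of a group to 1 of the group it was compared with, in 2 comparisons. Of 30 calls of a keratin, 19 held in every fit that left out 1 digit. Over pairs of a call and another setting, 181 of 199 held. Dropping the fold limit is among these settings and could not lose a call. None of these alternatives reversed a direction. With DESeq2 the number of keratins called in non-regenerative digits was 6 at 3 days (3 with edgeR), 2 at 7 days (0) and 4 at 14 days (0) against 0 hours, 4 for 6 against 3 hours (1) and 5 for 12 against 6 hours (0). In intermediate digits DESeq2 called 4 at 24 hours, 1 at 14 days and 1 at 21 days (0 each with edgeR), 3 for 21 days against 24 hours (1), and 1 between the groups at 24 hours (0). With all digits in 1 fit the numbers were 2 at 6 hours (4 in the separate fit), 5 at 14 days, 0 for 6 against 3 hours, 1 for 3 days against 24 hours (3), 3 at 24 hours in intermediate digits and 1 between the groups at 24 hours, and a term for the date period gave these same numbers and 2 at 7 days. Without a filter on low counts they were 1 at 21 days in intermediate digits, 4 for 6 against 3 hours, 2 for 12 against 6 hours and 3 for 21 days against 24 hours in intermediate digits. Without the fold limit 1 keratin was called between the groups at 21 days. With each digit left out in turn the number ranged from 2 to 4 at 6 hours, 0 to 2 at 14 days, 0 to 1 for 6 against 3 hours, 0 to 2 for 12 against 6 hours and 0 to 5 for 3 days against 24 hours. It ranged from 0 to 2 at 21 days and 0 to 4 for 21 days against 24 hours in intermediate digits, from 0 to 6 at 24 hours and 0 to 1 at 21 days between the groups, and from 0 to 2 for the difference between groups in the change to 24 hours. The stress to basal ratio was 0.172 at 0 hours without Krt17, and at 24 hours it was 2.41 on expected counts and 2.04 without Krt17. Summing Krt6a and Krt6b and using median-of-ratios size factors kept each number of calls within 1.5 times. The causes of these shifts were not tested. With 3 digits in most groups, the spread between digits sets the width of the intervals.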
